A study of Bos taurus with 30 samples.

Results

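MSX1, MSX2, HOXA9 and FST are 4 regulators of the uterine lining and of implantation, and they are described here in the endometrium of pregnant cows. They were found by their gene symbol in the platform annotation, which names 8073 genes by a single symbol. They match 5 probes, each a pair of adjacent spots: 2 probes for MSX1 (gene ID 286872) and 1 each for MSX2 (540230), HOXA9 (510459) and FST (327681). The genes were chosen by measured values, namely the ratio between tissues in SCNT animals, where MSX1, HOXA9 and FST had stood out in earlier work on these data. Their SCNT values, and differences that use them, are therefore given as a description with no test. Tests are given for AI and IVF-ET animals, whose values that contrast did not use. The limma tests take a shared spread per probe over all groups, SCNT included.

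The series holds 30 arrays with 2 colours from 15 Bos taurus females. Each array carried RNA of both kinds of endometrium of 1 animal, taken from frozen tissue. The caruncle is the gland-free patch to which a ruminant placenta attaches. The intercaruncle, the rest of the lining, bears the glands. Of the animals, 5 carried a pregnancy from artificial insemination (AI), 5 from in vitro fertilisation with embryo transfer (IVF-ET) and 5 from somatic cell nuclear transfer (SCNT), the cloning method. No untreated or non-pregnant group is part of the series, so each group is set against the others and against a ratio of 0.

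MSX1 and MSX2 are closely related homeobox proteins that mostly repress transcription and lie downstream of BMP signals. In the mouse uterus they are expressed for a short time before attachment, and loss of both leaves the epithelium unreceptive. Follistatin, the product of FST, is a secreted protein that binds activins, and some BMPs, and keeps them from their receptors. HOXA9 belongs to the HOXA cluster, whose members pattern the female tract along its axis, with HOXA9 best known from the oviduct.

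Every value below is the ratio between both tissues of an animal, taken as log2, so a value of 1 would be a doubling on that reading. The base of the logarithm and the tissue on the upper side of the ratio are not stated in the sources used here. Values are therefore called positive or negative, without naming a tissue. They were read as already turned to the tissues. Read as dye ratios instead, the SCNT means of MSX1, HOXA9 and FST would be 0.26, 0.036 and -0.013, so what follows rests on the first reading. The ratio carries no level, so how strongly a gene is expressed cannot be read from it. In tissue RNA, fewer cells of a type and less RNA per cell cannot be told apart. Whether the AI group was deposited the same way round as the others is also in doubt. Across probes, AI replicates 2, 3 and 4 correlated below 0 with the mean SCNT profile (r between -0.46 and -0.19), and replicates 1 and 5 above 0 (0.22 in both). Each IVF-ET animal lay above 0 (0.16 to 0.43). IVF-ET replicate 3 had the same dye labels on both arrays, which opposed each other (r = -0.32), and it was left out of the averages, which leaves 14 animals. Of 13818 probes tested with limma, 256 (1.85%) passed an adjusted p of 0.05 in SCNT animals, and 42, 97, 105 or 167 did without SCNT replicate 1, 2, 3 or 4. None passed in IVF-ET or in AI animals (0% in both, with 1097 and 609 at an unadjusted p under 0.05). Without AI replicate 1, AI replicate 5 or SCNT replicate 5, the IVF-ET count was 10, 1 and 21. These p-values measure the spread between animals.

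MSX1 stood on the positive side in every SCNT animal and in every IVF-ET animal kept in the averages. In SCNT replicates 1 to 5 its ratio was 1.11, 1.07, 1.25, 1.40 and 0.98, a mean of 1.16 ± 0.17 (SD, n = 5, a 2.23-fold ratio between the tissues). In IVF-ET replicates 1, 2, 4 and 5 it was 0.82, 0.80, 0.68 and 0.56, a mean of 0.72 ± 0.12 (SD, n = 4, 1.64-fold). The arrays of IVF-ET replicate 5 lay at 1.24 and -0.11, on both sides of 0. The lowest SCNT animal lay above the highest IVF-ET animal. Among all probes, 7.48% were positive in 5 of 5 SCNT animals and 10.9% in 4 of 4 IVF-ET animals, and the values of those groups did not overlap for 2.27%. Among the animals kept, MSX1 was the only member whose SCNT and IVF-ET values did not overlap. IVF-ET replicate 3, which was left out, had MSX1 arrays at -0.71 and 1.63. Its side, and its place beside the SCNT range, are therefore not settled.

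In AI animals MSX1 lay on both sides, at 1.38 in replicate 1, -0.23 in replicate 2, -0.43 in replicate 3, -1.05 in replicate 4 and 0.34 in replicate 5. The mean was 0.00 ± 0.92 (SD, n = 5), since animals with large ratios of opposite sign cancelled. Against 0, the AI mean had a limma adjusted p of 1.00. The IVF-ET mean had an adjusted p of 0.430 (unadjusted p = 0.00997, positive in 4 of 4 animals) in the fit that shares 1 spread per probe across the groups. That shared spread includes the wide AI values. With the IVF-ET animals fitted alone the adjusted p of MSX1 was 0.0186, where 106 of 13820 probes (0.767%) passed. The exact sign-flip test over 4 animals gave p = 0.125, the smallest it can give.

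**Figure D1:**
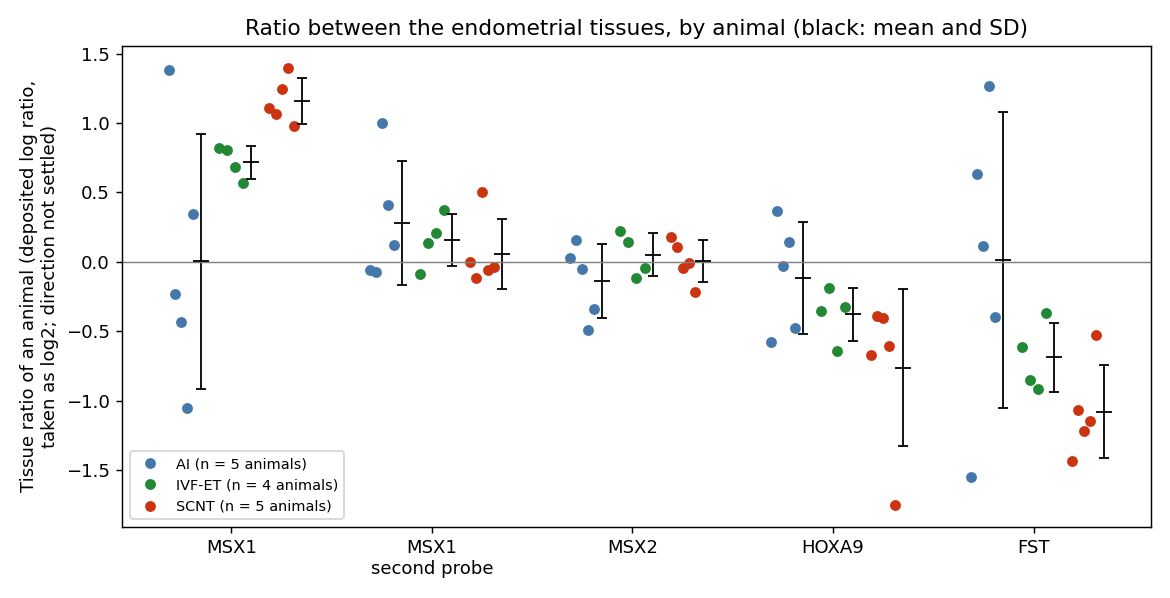
Tissue ratio (log2, direction not settled) of each probe in each animal, with AI in blue, IVF-ET in green and SCNT in red; black marks give the mean and SD of each group. MSX1 lies above 0 and FST below 0 in every IVF-ET and SCNT animal shown (IVF-ET replicate 3 is left out). The AI animals spread from -1.05 to 1.38 for MSX1 and from -1.55 to 1.27 for FST.

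FST was the mirror image. Its ratio in SCNT replicates 1 to 5 was -1.43, -1.07, -1.22, -1.14 and -0.53, a mean of -1.08 ± 0.34 (SD, n = 5, 2.11-fold). In IVF-ET replicates 1, 2, 4 and 5 it was -0.61, -0.85, -0.92 and -0.37, a mean of -0.69 ± 0.25 (SD, n = 4, 1.61-fold). All 9 of these animals were negative, and the ranges of the 2 groups overlapped through SCNT replicate 5, the animal nearest 0. Negative values in every animal of the group were found for 6.96% of probes in SCNT and 11% in IVF-ET.

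The AI animals again divided, here at -1.55 in replicate 1, 0.63 in replicate 2, 0.11 in replicate 3, 1.27 in replicate 4 and -0.40 in replicate 5. Their mean was 0.01 ± 1.07 (SD, n = 5, limma adjusted p = 1.00). The AI replicates with FST below 0 were the 2 with MSX1 above 0. The IVF-ET mean of FST had a limma adjusted p of 0.575 in the shared fit (unadjusted p = 0.033, negative in 4 of 4 animals). It was 0.0351 with IVF-ET animals fitted alone, and the exact sign-flip test again gave p = 0.125, its smallest value.

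HOXA9 lay on the side of FST, with smaller ratios. It was at -0.67, -0.39, -0.40, -0.60 and -1.75 in SCNT replicates 1 to 5 (mean -0.76 ± 0.56, SD, n = 5, 1.70-fold). Replicate 5 carried much of that mean and its spread, and the mean of the other SCNT animals was -0.52. In IVF-ET replicates 1, 2, 4 and 5 HOXA9 was at -0.36, -0.19, -0.64 and -0.33 (mean -0.38 ± 0.19, SD, n = 4). That mean had a limma adjusted p of 0.670 (unadjusted p = 0.064, negative in 4 of 4 animals, exact sign-flip p = 0.125). AI animals lay at -0.58, 0.37, -0.03, 0.14 and -0.48 in replicates 1 to 5, a mean of -0.12 ± 0.40 (SD, n = 5, limma adjusted p = 1.00). One of the arrays of AI replicate 1 had no HOXA9 value, so that animal rests on the other.

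MSX2, the closest relative of MSX1 among the members, did not share its pattern. Its means were 0.00 ± 0.15 in SCNT (SD, n = 5), 0.05 ± 0.16 in IVF-ET (SD, n = 4) and -0.14 ± 0.27 in AI animals (SD, n = 5). Single animals ran from -0.49 (AI replicate 4) to 0.22 (IVF-ET replicate 1), and each group held animals on both sides. The limma adjusted p was 0.984 in IVF-ET and 1.00 in AI, and the 95% interval of the IVF-ET mean ran from -0.17 to 0.28. A ratio of the size seen for MSX1 in IVF-ET animals lies outside that interval for this probe. Both MSX2 arrays lay on the same side in only 8 of 14 animals. Whether the probe detects the MSX2 transcript was not tested, so a flat ratio does not show that the tissues are alike.

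The second MSX1 probe also departed from the first. It was near 0 in 4 SCNT animals (-0.113 to -0.00465) and at 0.50 in replicate 3, a mean of 0.06 ± 0.25 (SD, n = 5). Its IVF-ET animals ran from -0.09 to 0.37 (mean 0.16 ± 0.19, SD, n = 4, limma adjusted p = 0.912) and its AI animals from -0.07 to 1.00 (mean 0.28 ± 0.45, SD, n = 5, limma adjusted p = 1.00). All that is said of MSX1 here therefore rests on 1 of its 2 probes, spots 12073 and 12074, which had as many values as the other and comes first in the file. The other is at spots 23053 and 23054. Whether both probes detect the MSX1 transcript was not tested.

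The arrays of an animal, labelled with exchanged dyes, bear on how well each ratio was measured. For FST both arrays lay on the same side in 13 of 14 animals, and after the dye effect was taken off they differed by a median of 0.21. MSX1 had both on the same side in 12 of 14 animals (median gap 0.36, the widest 1.64 in IVF-ET replicate 5). HOXA9 did in 11 of 13 (median gap 0.41) and MSX2 in 8 of 14 (0.26). For the second MSX1 probe it was 5 of 14. Duplicate spots on an array lay closer, at median gaps of 0.09 for FST and HOXA9, 0.11 for MSX1 and 0.14 for MSX2. Over all probes, the arrays of an IVF-ET animal correlated at r = 0.42, -0.06, -0.007 and 0.02 in replicates 1, 2, 4 and 5. Those of an SCNT animal correlated at r between 0.12 and 0.79. In AI animals, where over all probes the arrays of an animal correlated at r between 0.02 and 0.35, the paired values of FST were close. They were -1.74 and -1.36 in replicate 1, 0.63 and 0.64 in replicate 2, 0.26 and -0.04 in replicate 3, 1.18 and 1.35 in replicate 4, and -0.30 and -0.49 in replicate 5. For FST the gaps within AI animals were thus small against the distance between them. MSX1 was less even, at 1.98 and 0.79, 0.38 and -0.84, -0.15 and -0.72, -1.04 and -1.06, and 0.36 and 0.33 in replicates 1 to 5, with replicate 2 on both sides. HOXA9 lay at 0.53 and -0.25 in AI replicate 4 and at -0.76 and -0.19 in replicate 5, gaps that are large beside the range of the AI animals (-0.58 to 0.37).

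**Figure D2:**
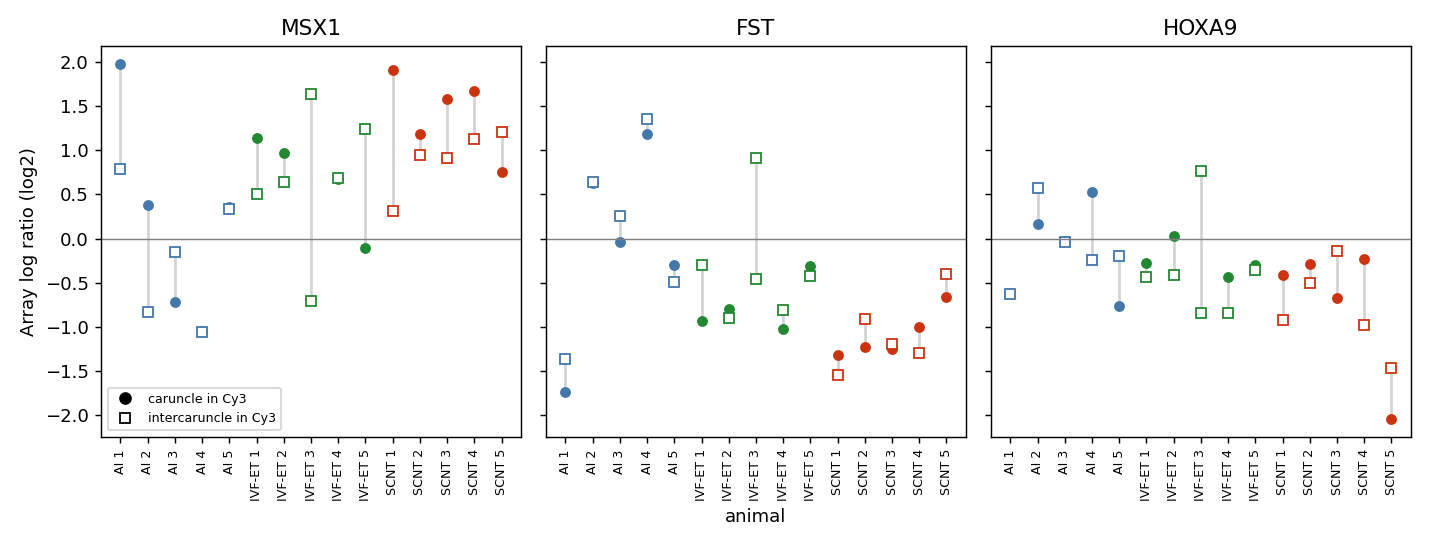
Array log ratio (log2, mean of the duplicate spots, before the dye effect is removed) of MSX1, FST and HOXA9 on every array, including IVF-ET replicate 3; filled circles had the caruncle in Cy3 and open squares the intercaruncular tissue. The FST arrays of an animal, joined by a line, lie within 0.53 of each other once the dye effect is removed, except in IVF-ET replicate 3 (0.91 and -0.46), and both arrays of AI replicate 4 are above 1 for FST and below -1 for MSX1.

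By mean, MSX1 was highest in SCNT, then IVF-ET, then AI (near 0), and FST and HOXA9 were lowest in SCNT, then IVF-ET, then AI (0.01 and -0.12). SCNT minus IVF-ET was 0.44 ± 0.33 for MSX1, -0.39 ± 0.39 for FST and -0.38 ± 0.26 for HOXA9 (SE from limma), a description without a test. SCNT minus AI was 1.16 ± 0.31, -1.09 ± 0.37 and -0.65 ± 0.24 in the same order of genes, also without a test.

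The difference between IVF-ET and AI animals does not use the SCNT means and was tested. Its limma SE and p do use the SCNT spread, which the shared fit includes. With AI and IVF-ET animals fitted without SCNT, the limma adjusted p was 0.526 for MSX1 and 0.608 for FST. It was 0.703 for HOXA9 and 0.745 for MSX2. In the shared fit the difference was 0.71 ± 0.33 for MSX1 (SE, limma adjusted p = 0.586, exact permutation p = 0.175), and the AI animals overlapped the IVF-ET animals. For FST it was -0.70 ± 0.39 (adjusted p = 0.679, exact permutation p = 0.270), for HOXA9 -0.26 ± 0.26 (0.862 and 0.270) and for MSX2 0.19 ± 0.14 (0.796 and 0.294). Single AI animals moved these differences: that of MSX1 was 1.06 without AI replicate 1 (limma adjusted p = 0.0634) and 0.45 without AI replicate 4 (0.865). That of FST was -1.09 (0.145) and -0.39 (0.937), and that of HOXA9 -0.15 without AI replicate 2 (0.931). If the animal left out is added back with the sign of its second array changed, the IVF-ET means were 0.34 for MSX1, -0.41 for FST and -0.14 for HOXA9 (limma adjusted p = 0.999), and the differences from AI 0.34, -0.42 and -0.027 (limma adjusted p = 0.999). The smallest p that 126 arrangements of the animals allow is 0.0159. No member passed, where 0.0579% of all probes did, and none had AI and IVF-ET values that did not overlap, where 3.32% of probes had. With the sign of the AI group turned, the difference was 0.72 for MSX1, -0.67 for FST and -0.49 for HOXA9 (exact permutation p = 0.183, 0.286 and 0.0794). MSX2 changed sign, to -0.09 (exact permutation p = 0.563).

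The relation of MSX1 to FST within an animal was examined in the AI and IVF-ET animals, since the choice of the genes fixed their opposite sides in SCNT animals (5 of 5). The 2 genes lay on opposite sides of 0 in 9 of 9: 5 of 5 AI and 4 of 4 IVF-ET animals. That count does not depend on which way round an animal was deposited, since turning the ratio turns both genes. Of all probes, 1.15% lay opposite MSX1 in these 9 animals and 1.86% lay with it. FST and HOXA9 were chosen with SCNT ratios opposite MSX1, so shares over all probes are not a like background for them. The share among probes that also lay opposite MSX1 in SCNT animals was not computed. Array by array, MSX1 and FST were opposite on 15 of 18 arrays. They were also opposite on both arrays of the animal left out, at -0.71 and 0.91 on the first and 1.63 and -0.46 on the second. HOXA9 lay opposite MSX1 in 8 of 9 animals and on the side of FST in 8 of 9, with AI replicate 3 (-0.03) the exception for each. At least 8 of 9 animals opposite MSX1 were found for 5.03% of probes, and with FST for 5.02%. MSX2 lay with MSX1 in 5 of 9.

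Over the 9 AI and IVF-ET animals, MSX1 and FST correlated at r = -0.96 (exact permutation p = 0.00019, 0.00114 adjusted over 6 pairs of members). Spearman's rho was -0.90 (exact permutation p = 0.00203, adjusted 0.0122). The animal with AI replicate 1 had the highest MSX1 and lowest FST, and AI replicate 4 the reverse. Without AI replicates 3 and 4, the animals farthest from the median of MSX1, r was -0.97, and with the mean of each group taken off it was -0.95. Both checks keep AI animals, which were the widest apart. Their SD was 0.92 for MSX1 and 1.07 for FST, against 0.12 and 0.25 in IVF-ET animals. No r within IVF-ET animals alone was computed. HOXA9 correlated with FST at r = 0.85 (exact permutation p = 0.00378, adjusted 0.0113; rho = 0.85, exact permutation p = 0.00607, adjusted 0.0182) and at 0.69 without AI replicates 2 and 4. With MSX1 it was at r = -0.78 (exact permutation p = 0.0144, adjusted 0.0287), while rho was -0.68 (exact permutation p = 0.0503, adjusted 0.101). Of the pairs with MSX2, that with MSX1 was at r = 0.54, that with FST at -0.44 and that with HOXA9 at 0.01, with exact permutation p of 0.131, 0.232 and 0.979 (adjusted 0.196, 0.278 and 0.979). The first of these fell to 0.07 without AI replicates 3 and 4. These pairs were examined after the values were seen. Both genes of a pair were read from the same arrays, so an animal whose ratio was turned moves a pair along its own line. With the AI sign turned, r of MSX1 and FST was -0.96. Read as ratios of the dyes instead, the values gave opposite sides in 7 of 14 animals and r = -0.33 (exact permutation p = 0.386). The second MSX1 probe lay opposite FST in 6 animals, with r = 0.36 (exact permutation p = 0.338).

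**Figure D3:**
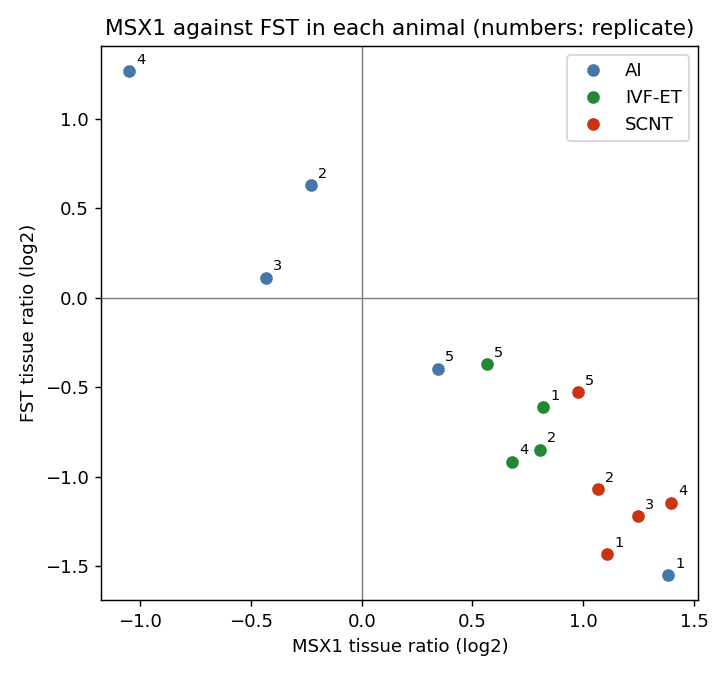
MSX1 ratio (x axis, log2) against FST ratio (y axis, log2) in the 14 animals, coloured by group and numbered by replicate. All 14 points lie to the upper left or lower right of the crossing lines at 0; AI replicates 2, 3 and 4 are in the upper left and AI replicates 1 and 5 in the lower right with every IVF-ET and SCNT animal.

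Across 8066 other genes measured in all 14 animals, FST had the lowest correlation with MSX1 (r = -0.95), and MSX1 the lowest with FST. This ranking includes the SCNT animals on which the genes were chosen. Over the 9 AI and IVF-ET animals, FST ranked 3 from the low end for MSX1, and MSX1 ranked 2 from the low end for FST. HOXA9 ranked 226 from the low end for MSX1 there (2.80% of genes as low) and 54 from the high end for FST (0.669%). Next to FST at the low end for MSX1 were RUNX1T1, a transcriptional corepressor (r = -0.91), and PTN, the secreted growth factor pleiotrophin (-0.91). At the high end were NRBP2 (0.91) and RNF149, a ubiquitin ligase (0.89). For FST the highest were RUNX1T1 (0.90), PTN (0.89) and CYP4V2, a fatty acid hydroxylase (0.88), and after MSX1 the lowest were TTLL1 (-0.91) and NRBP2 (-0.90). RUNX1T1, PTN and NRBP2 appear at opposite ends for MSX1 and FST, which the r of -0.95 between MSX1 and FST largely fixes.

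HOXA9 and MSX2 had other company. The genes most like HOXA9 over the 14 animals were the complement protease C1S (r = 0.93), the serotonin receptor HTR6 (0.92) and the T-box factor TBX2 (0.91). Those least like it were CTNNA1, a catenin of cell junctions (-0.89), VAPA (-0.87) and RABGEF1 (-0.86). Without the SCNT animals HTR6 fell to 0.71 and RABGEF1 to -0.58. For MSX2 they were ELF3, an epithelial transcription factor (0.85), CPT1B, a carnitine transferase (0.83), and RASGRP2 (0.81), against IL18RAP (-0.87), the ribosomal protein RPL21 (-0.84) and the peptide transporter TAP2 (-0.84). These r are over 14 animals that share their arrays gene by gene, and are a description.

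**Figure D4:**
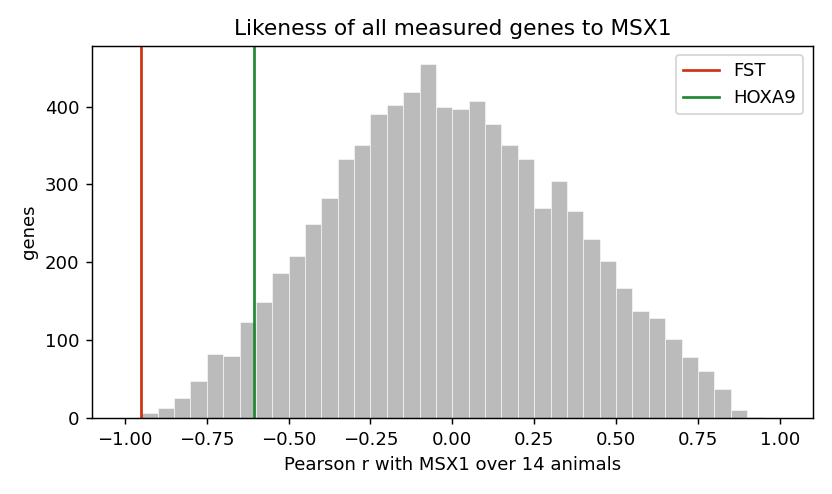
Number of genes (y axis) by their Pearson r with MSX1 over 14 animals (x axis, bins of 0.05), with FST in red and HOXA9 in green. FST, at -0.95, is at the lower end of all 8066 genes, and HOXA9, at -0.60, is inside the lower tail.

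The median ratios of epithelial and stromal markers moved with these genes, though not every single marker did. The median of 12 epithelial markers (of 14 listed, keratins and junction proteins among them) lay on the side of MSX1 in 14 of 14 animals. It was 0.27 to 0.56 in SCNT, 0.34 to 0.80 in IVF-ET and -0.60 to 0.30 in AI animals. The median of 11 stromal markers (of 13, mostly collagens and matrix proteins) lay with FST in 13 of 14 animals, at -1.40 to -0.34 in SCNT, -0.74 to -0.22 in IVF-ET and -0.13 to 0.61 in AI. AI replicate 1 was the exception, with a stromal median of 0.61 beside FST at -1.55. Counts over 14 animals include the SCNT animals, where the choice of the genes fixed the sides of MSX1 and FST. Of single probes, 1.86% lay with MSX1 in 9 of 9 AI and IVF-ET animals. With FST in at least 8 of 9 it was 5.02%. These shares are for single probes over 9 animals. No share was computed for the median of a set of probes, so the marker counts have no like background. In SCNT animals 3 epithelial markers passed the limma test on the positive side, where 0.789% of probes did, and 5 stromal markers on the negative side, where 1.06% did. The lists were chosen with earlier results of these data known, so these counts are a description. COL6A3 (-1.69 ± 0.19, SE) and DSP (0.63 ± 0.14, SE) had the smallest adjusted p of each list, at 0.0026 and 0.0263 with limma. By SCNT mean, KRT19 went against its list (-0.29, negative in 4 of 5 animals). By IVF-ET mean, VIM (0.11) and POSTN (0.17) did, each positive in 3 of 4 animals. In SCNT replicate 5, 5 of 12 epithelial markers were negative. Trophoblast markers (8 of 15 measured) had medians between -0.19 and 0.17 in 12 animals, and of -0.46 and -1.42 in SCNT replicates 4 and 3. In those animals MSX1 was at 1.40 and 1.25 and FST at -1.14 and -1.22. The 3 gland markers measured (of 8) had a median on the side of FST in 11 of 14 animals. No marker of glands, smooth muscle, endothelium, leukocytes, red blood cells or trophoblast passed the limma test in any group. The part of these cell types in the ratios of MSX1, FST and HOXA9 was not tested.

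**Figure D5:**
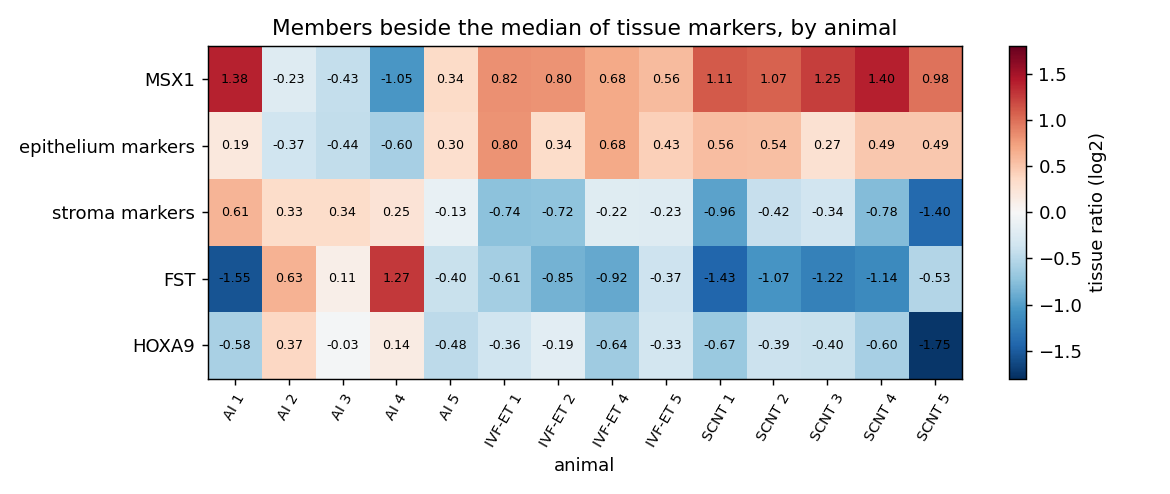
Ratio of MSX1, FST and HOXA9 and the median ratio of 12 epithelial and 11 stromal markers (rows) in each of 14 animals (columns), in log2, with red above and blue below 0. The sign of the epithelial row matches MSX1 in every column, and the stromal row matches FST except in AI replicate 1.

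The pathways around the members were described from lists of their ligands, receptors and targets. In the BMP axis, the inputs of MSX1 and MSX2, 15 of 27 listed genes were measured. None passed with limma in SCNT, IVF-ET or AI animals, and the SCNT list median was -0.04 against 0.00 over all probes. BMP4, a ligand, was at -0.49 ± 0.43 in SCNT (SD, n = 5, negative in 5 of 5 animals, limma adjusted p = 0.142), and ID2, a BMP target, at 0.42 ± 0.39 (SD, n = 5, positive in 4 of 5, adjusted p = 0.159). By sign, BMP4 lay with FST and ID2 with MSX1, without passing. Since MSX1 and FST were chosen with opposite SCNT sides, any gene has the sign of either MSX1 or FST.

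Among the partners of follistatin, 14 of 22 genes of the activin, inhibin and TGF-beta axis were measured and none passed with limma in any group (SCNT median 0.00). The betaglycan receptor TGFBR3 was at -0.40 ± 0.35 (SD, n = 5) and the ligand TGFB2 at -0.24 ± 0.11 (SD, n = 5) in SCNT animals, each negative in 5 of 5 (limma adjusted p = 0.167 and 0.263). The inhibin subunits INHA, at 0.00, and INHBB, at -0.20, and the relative FSTL3, at 0.22, did not pass in SCNT animals (limma adjusted p = 0.997, 0.404 and 0.492). INHBA, which encodes a main ligand of follistatin, was not analysed here.

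Of 52 HOX genes, cofactors and related patterning genes, 15 were measured and none passed with limma (SCNT median 0.07). HOXB8, at 0.95 ± 0.57 (SD, n = 5, positive in 4 of 5, limma adjusted p = 0.0544), and HOXB7, at 0.57 ± 0.32 (SD, n = 5, positive in 5 of 5, 0.0881), lay on the side opposite HOXA9. Within the HOXA cluster, HOXA2, HOXA3, HOXA4 and HOXA5 were also measured, at 0.12, 0.35, -0.11 and -0.16 in SCNT animals (limma adjusted p = 0.679, 0.204, 0.724 and 0.492). HOXA10 and HOXA7 are the neighbours of HOXA9 in the RefSeq gene order of assembly ARS-UCD2.0. These genes and HOXA11 had 0 probes named by their single symbol, so they were not analysed here.

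Of 42 other regulators of implantation, 26 were measured and none passed with limma in any group, with an SCNT median of 0.05. NR2F2, a nuclear receptor of uterine stroma, was at -0.59 ± 0.28 in SCNT animals (SD, n = 5, negative in 5 of 5, limma adjusted p = 0.0806). In IVF-ET animals it was at -0.53 (negative in 3 of 4, limma adjusted p = 0.428). KLF5, an epithelial factor, was at 0.56 ± 0.64 in SCNT animals (SD, n = 5, positive in 5 of 5, limma adjusted p = 0.155). In IVF-ET animals it was at 0.45 (positive in 4 of 4, limma adjusted p = 0.628). By sign, NR2F2 lay with FST and KLF5 with MSX1, without passing. Any gene lies with either MSX1 or FST in SCNT animals, since their sides there are opposite by choice.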

How the data were processed

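RNA from 30 arrays with 2 colours (Cy3 on channel 1, Cy5 on channel 2, per the labels) was available as 1 table of deposited log ratios, here taken as log2. Array medians of the deposited values lay between -0.02055 and 0.019, so they were near centred as given. Image analysis, background correction, normalisation method, logarithm base and channel order are not given in the sources used here. Arrays held 26744 to 27643 spots with a value, and signal over background is not known. Adjacent spots of a probe were averaged, arrays centred on their median, a dye effect per probe removed, and the 2 arrays of an animal averaged, so the animal is the replicate. The values were read as already turned to the tissues. A probe was tested with a value in at least all but 1 animal of each group.

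limma 3.58.1 in R 4.3.3 (lmFit, eBayes) fitted a mean per group with a shared spread. Tests were two-sided, with Benjamini-Hochberg adjustment over all 13818 probes and a threshold of 0.05. Single values were tested by exact permutation. The fit was tested on simulated data. Gene names came from the platform annotation. A gene with several probes was represented by the probe with most values, then the first. Named are all members, the 2 genes of each pathway list with the smallest SCNT p (none passed) and the 3 genes at each end of likeness to a member, of which 1 is not reported here. COL6A3 and DSP, and the other genes named in the pathway paragraphs, were chosen after their values were seen. Members and lists were chosen with earlier results of these data known. Alternatives changed the reading of the values, the animals, the spread, centring, spots, filter and probe.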

Additional observations from a re-analysis of the deposited data

Results flagged for a closer look

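HOXA9 in SCNT replicate 5 lay far from the other SCNT animals, at -1.75 against -0.67 for the nearest, and 0.794 of the range of the group lay in that gap. Both arrays of that animal were low, at -1.46 and -2.04. Without it the SCNT mean was -0.52 in place of -0.76.

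The second MSX1 probe in SCNT replicate 3 lay apart as well, at 0.50 against -0.00465 for the nearest animal. The first array of that animal was at 1.02 and the second at -0.02, so 1 array carried the value. In all, 15 groups of animals were examined this way, of which 2 stood out; by chance about 1 in 20 would.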

How the results depend on the processing

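Read as dye ratios, the values gave other answers: SCNT means of 0.26 for MSX1, 0.036 for HOXA9 and -0.013 for FST, IVF-ET means of -0.051 for MSX1, -0.12 for MSX2, 0.13 for HOXA9 and -0.078 for FST, AI means of 0.0254 for HOXA9 and -0.0655 for FST, and IVF-ET minus AI of -0.24 for MSX1, -0.00278 for MSX2, 0.11 for HOXA9 and -0.0127 for FST. Probes called were then 0 in SCNT, 1 in IVF-ET, 360 in AI and 0 for IVF-ET minus AI, MSX1 and FST were opposite in 7 animals and their r was -0.33. The cause was not tested. The second MSX1 probe gave 0.0573 in SCNT, -0.12 for IVF-ET minus AI, 6 animals opposite FST and r = 0.36; the mean of both probes gave 0.61 in SCNT. Groups fitted alone had 74 probes called in SCNT, 106 in IVF-ET (with MSX1 at 0.72, adjusted p = 0.0186, and FST at -0.69, adjusted p = 0.0351, by limma) and 18 for IVF-ET minus AI. IVF-ET replicate 3 kept with its first array turned gave 81 in IVF-ET and 34 for IVF-ET minus AI; with the second turned, 0 in SCNT and 0 for the difference, and IVF-ET means of 0.34 for MSX1, -0.41 for FST and -0.14 for HOXA9 (0.81, -0.69 and -0.46 with the first turned). With either, MSX1 and FST were opposite in 15 of 15 animals. Turning the AI sign gave -0.088 for MSX2 and 0 probes for IVF-ET minus AI, as did scaling arrays to 1 spread for the probes. First spots alone put the AI mean of MSX1 at -0.0242.

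Leaving out 1 animal in turn, the AI mean ran from -0.34 to 0.27 for MSX1, from -0.23 to 0.000312 for HOXA9 and from -0.30 to 0.40 for FST, and the IVF-ET mean of MSX2 from -0.00503 to 0.11. IVF-ET means ran from 0.68 to 0.77 for MSX1 and -0.79 to -0.61 for FST, with limma adjusted p between 0.134 and 0.977 and between 0.266 and 0.977. Called probes ran from 42 to 325 in SCNT, 0 to 21 in IVF-ET and 0 to 37 for IVF-ET minus AI, against 8 with all animals. The difference had 27, 26 and 37 without AI replicate 1, AI replicate 5 or SCNT replicate 5, and at most 1 without any other animal. IVF-ET minus AI ran from 0.45 to 1.06 for MSX1, -1.09 to -0.39 for FST and -0.38 to -0.15 for HOXA9. The r of MSX1 and FST over AI and IVF-ET animals ran from -0.98 to -0.93, and the genes stayed opposite in 13 of 13 animals each time. The number of animals limits the precision.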
